A study of Homo sapiens with 3 samples.

Results

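The cells described here were the mesenchymal cells of a culture in which human pluripotent stem cells were induced to form melanocytes, taken at day 23 (D23). They were chosen by their own RNA. Per 10000 UMIs of a cell (UMIs are the molecular tags that stand for single RNA molecules), the pigment genes PMEL, MLANA, DCT and TYRP1 were summed as M, the mesenchymal genes COL5A1, COL6A3, LUM, PRRX1, THBS1 and TGFBI as S, and the neural crest and neural genes NEFM, MSX2, ZIC1, ZIC2 and CRABP1 as N. A cell was taken where M was under 5, S was at least 5 and S exceeded N. The rule picked 329 of 3795 D23 cells that passed the study's cell filter, which is 8.67% (exact Clopper-Pearson 95% interval 7.79 to 9.61%), out of 15629 filtered cells and 22522 barcodes in the whole series. The other 3466 D23 cells are the set they are compared with. Of these, 2702 had M of 5 or more and are called pigment cells, 743 had M under 5 and an N of at least 5 that was not below S and are called crest cells, and 21 fell in no class.

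The study followed melanocyte induction with 1 droplet library of RNA at each of 3 times, D23, D32 and D44. Embryoid bodies were kept in suspension in a differentiation medium that held 50% medium conditioned by L-Wnt3a cells, with SCF (the ligand of the KIT receptor), endothelin-3, bFGF, cholera toxin, dexamethasone and the phorbol ester TPA, and were then plated on fibronectin. Passaged cells had that medium with serum and with TPA left out. This protocol is given for all 3 libraries, and cells were cryopreserved before they were sequenced. The labels disagree on the starting cells: the titles say induced pluripotent stem cells, and the cell line field says H9, an established human embryonic stem cell line. D23 came from its own induction and sequencing run, whereas D32 and D44 shared both, so the day, the induction and the run cannot be told apart. With 1 library a time there are no replicates and no test between groups: values are sums over cells, scaled to 1000000 UMIs of the class (CPM), their 95% intervals (exact Poisson for CPM, exact binomial for ratios and shares) cover counting error only, and a gene is called higher or lower where the ratio is at least 4-fold.

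The neural crest leaves the dorsal neural tube and gives rise to melanocytes, glia and peripheral neurons, and in the head also to mesenchyme: loose cells that build connective tissue, cartilage, bone and the wall of vessels. Mesenchymal cells secrete fibrillar collagens, fibronectin and proteoglycans, pull on that matrix through actin and myosin, and carry the receptors for PDGF and TGF-beta ligands. TWIST1 and PRRX1 are transcription factors of such cells. In skin, dermal mesenchymal cells supply ligands that melanocytes depend on, among them the KIT ligand encoded by KITLG.

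The values that chose the cells ran up to the limits of the rule without a gap, and the S values of mesenchymal and crest cells overlapped. S in the mesenchymal cells had a lowest value of 5.12, a median of 16.7 and a highest of 80.6, against medians of 0 in pigment cells and 4.66 in crest cells, whose highest values were 32.6 and 25.2. S lay between 5 and 10 in 68 of the 329 cells and reached 20 or more in 115, and in 10 cells it rested on under 5 UMIs. M was exactly 0 in 214 mesenchymal cells and between 2 and 5 in 30. N was above 0 in 174 of them and at least 5 in 57. Just inside the rule the S values were 5.12, 5.56, 5.62, 5.67 and 5.88, and just outside it 4.54, 4.46, 4.42, 3.96 and 3.63. The M values just inside were 4.98, 4.85, 4.78, 4.61 and 4.27, and those just outside 5.07, 5.53, 5.55, 5.98 and 7.34. Of the cells outside, 7 missed the rule with S between 3 and 5. Another 10 missed it with M from 5 to 10, and 21 with M of 10 or more. The largest group outside was of 347 cells with S of 5 or more in which N was at least as high as S.

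**Figure D1:**
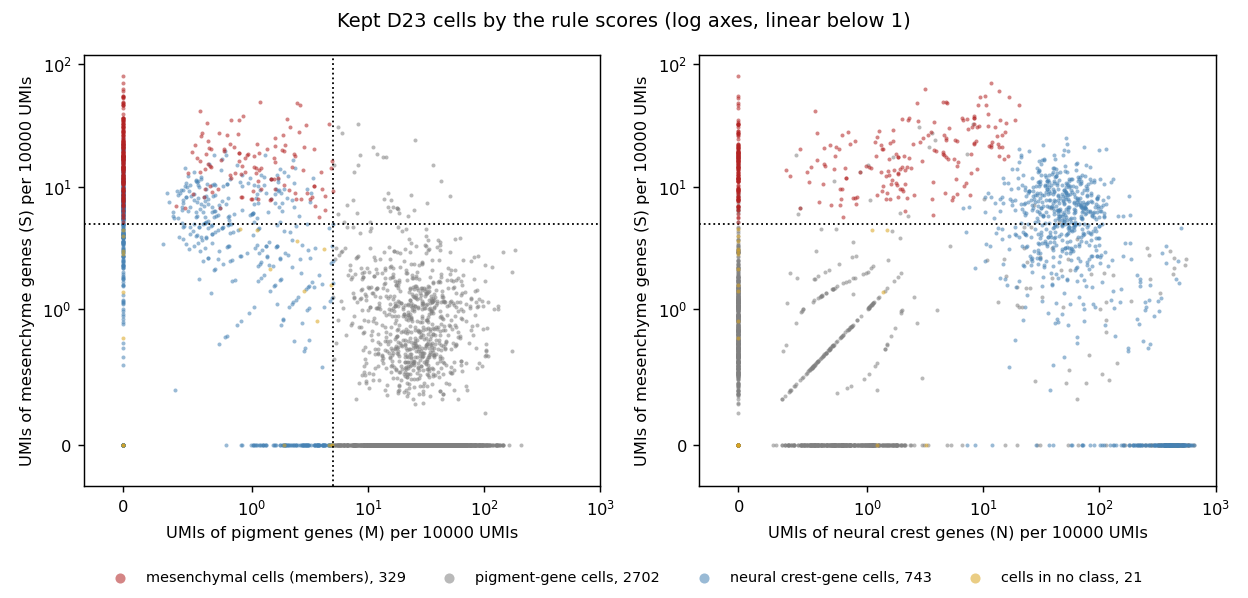
S against M (left) and S against N (right), each per 10000 UMIs of a cell on axes that are linear near 0 and logarithmic above, with 1 point for each of the 3795 filtered D23 cells; dotted lines mark 5. The 329 mesenchymal cells spread from an S of 5.12 to 80.6, the line at an M of 5 is their limit toward the pigment cells, and they meet the crest cells along N, where 347 cells with S of 5 or more lie outside the rule.

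In depth the mesenchymal cells were close to the rest. They held 4130219 UMIs, with a lowest of 2092, a median of 12042 and a highest of 35625 per cell, against a median of 12615.5 in the other cells. Their median number of genes was 3429, against 3677 in the other cells, and their median mitochondrial share was 2.86%, against 4.09%. When all D23 cells were clustered without the 15 rule genes, 1 of 8 clusters, of 357 cells, held 316 of the 329 mesenchymal cells together with 26 pigment cells, 10 cells of no class and 5 crest cells, and 9 mesenchymal cells lay in a cluster of 601 cells that was mostly crest cells. A doublet caller marked 11 mesenchymal cells (3.34%), 212 pigment cells (7.85%) and 6 crest cells (0.808%), and none was removed. D23 shared 16 barcodes with D32 and 9 with D44.

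The 5 genes that mark the label were all present. Transcripts of COL1A1 (chr17:50184101-50201632 on GRCh38), the chain that makes up most of type I collagen, were at 3898 CPM in mesenchymal cells, against 45.9 in pigment cells and 915 in crest cells. TWIST1 (chr7:19020991-19117636) was at 302 CPM in mesenchymal cells against 16.7 in pigment and 70.4 in crest cells. The homeobox factor PRRX1 (chr1:170662728-170739421) was at 299 CPM in mesenchymal cells against 4.24 in pigment and 7.86 in crest cells, the collagen VI chain COL6A3 (chr2:237324003-237414328) at 312 against 3.74 and 70.9, and the matricellular protein THBS1 (chr15:39581079-39599466) at 316 against 13.5 and 52.8. The rule itself used the last 3, so only COL1A1 and TWIST1 stand outside it. A TWIST1 UMI was seen in 86.9% of mesenchymal cells, 14.2% of pigment cells and 38.0% of crest cells. With every cell thinned to 5000 UMIs, which left out 16 mesenchymal and 111 pigment cells, the TWIST1 shares were 70.9% of mesenchymal, 5.98% of pigment and 22.5% of crest cells, at median depths before thinning of 12042 UMIs in mesenchymal and 12488.5 in pigment cells. Thinned shares for COL1A1 were 99.0% of mesenchymal, 5.71% of pigment and 76.6% of crest cells, so most crest cells also held this collagen.

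Several defining markers of other mesodermal and epithelial cells were at or near 0 in the mesenchymal cells, while other genes of those lists were present. No UMI was counted for the skeletal muscle factors MYOD1, MYOG and PAX7, the osteoblast genes SP7 and IBSP, the cartilage genes ACAN and COL9A1, the tendon gene TNMD, the mesothelial factor WT1, the endothelial cadherin CDH5, the leukocyte antigen PTPRC, the pluripotency factor NANOG, or the epithelial genes CDH1, KRT5, KRT14 and TP63. A count of 0 among 4130219 UMIs is taken as allowing up to 3 UMIs for each. The pluripotency factor POU5F1 had 1 UMI, the endothelial gene PECAM1 had 3, and both the epithelial gene EPCAM and the muscle filament gene DES had 5. The smooth muscle myosin MYH11 had 6 UMIs. Of 9 tested smooth muscle and pericyte genes, however, 3 were higher than in the other D23 cells and none was lower. That list summed to 285 CPM in mesenchymal cells against 127 in the other cells. Of 9 tested genes of dermal fibroblasts 5 were higher than in the other D23 cells and 2 lower, with DPT, dermatopontin, at 9.20 CPM in mesenchymal cells against 0.284 in the other cells. The sum of the fibroblast list went the other way, at 509 CPM in mesenchymal cells against 1860 in the other cells and 4634 in crest cells. Such a sum follows the most abundant genes, and the median log2 ratio of the 9 tested genes to the other cells was 3.21. At D32 the list summed to 946 CPM in cells picked by the same rule against 161 in the other cells. The part of the rule genes in this sum was not tested. Of 4 tested skeletal muscle genes 2 were higher and none was lower, ACTC1 and TNNT2, a troponin of heart and embryonic muscle (at 7.99 CPM in mesenchymal cells against 0.591 in the other cells), and the list summed to 146 CPM in mesenchymal cells against 48.8 in the other cells. None of 5 tested osteoblast genes was 4-fold apart, but 3 were at least 2-fold higher, and the list summed to 143 CPM in mesenchymal cells against 59.4 in the other cells. Of 8 chondrocyte genes 1 was higher and 3 were lower, with sums of 235 CPM in mesenchymal cells against 231 in the other cells. Of 9 epithelial genes none was higher and 2 were lower, with sums of 196 CPM in mesenchymal cells, 48.5 in pigment cells and 559 in crest cells. The part of such cells in these sums was not tested. For the counts of these lists, the shares over all tested genes were 2.19% higher and 4.3% lower at 4-fold, and 5.96% higher and 11.3% lower at 2-fold.

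Among 14031 genes at 1 CPM or more over all filtered D23 cells, 307 (2.19%) were at least 4-fold higher and 603 (4.3%) at least 4-fold lower in the mesenchymal cells than in the other cells, with a median log2 ratio of -0.12. At 2-fold the shares were 5.96% and 11.3%. Against pigment cells alone 644 genes (4.59%) were higher and 576 (4.11%) lower, and against crest cells alone 287 (2.05%) were higher and 641 (4.57%) lower. Because the cells were chosen on the same RNA, these counts and those of the gene lists below describe the chosen cells and are not evidence for them. Some list counts include S genes of the rule, LUM and PRRX1 among them.

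Most fibrillar collagen genes were higher in the mesenchymal cells. Of 11 fibrillar collagen genes 10 passed the minimum of 1 CPM, and 6 of these were higher and 2 lower than in the other cells, with a median log2 ratio of 2.58. COL1A1 was 16.1-fold higher (15.7 to 16.5), at 3898 CPM in mesenchymal cells against 242 in the other cells. COL1A2, the second chain of type I collagen, was at 3029 CPM in mesenchymal cells against 599 in the other cells, and COL3A1, the collagen of young and elastic tissue, at 338 against 35.9. The type V chains COL5A2 and COL5A3, which set the width of collagen fibrils, were at 464 CPM in mesenchymal cells against 65.8 in the other cells and at 35.3 against 0.984. The cartilage collagen COL2A1 ran the other way, at 4.84 CPM in mesenchymal cells against 62.3 in the other cells. The type I chains were also present in crest cells, where COL1A1 was at 915 CPM and COL1A2 at 1454, so that of the fibrillar collagens 3 were 4-fold higher than in crest cells and 6 than in pigment cells.

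Among 33 other collagen genes, 19 passed the minimum, with 10 higher, 1 lower and a median log2 ratio of 2.03. The basement membrane chains COL4A1 and COL4A2 were at 426 CPM in mesenchymal cells against 43.0 in the other cells and 598 against 115, and here crest cells were as low as pigment cells (44.8 and 42.1 CPM for COL4A1). COL8A1, a short-chain collagen of vessel walls and of the cornea, stood at 113 CPM in mesenchymal cells against 1.41 in pigment and 2.85 in crest cells, a ratio to all other cells of 59.5 (47.3 to 75.7). COL12A1, which coats the surface of fibrils, was at 151 CPM in mesenchymal cells against 15.9 in the other cells. COL6A1 was at 369 in mesenchymal cells against 98.5 in the other cells, a ratio of 3.75 that missed 4-fold. COL13A1 and COL15A1 passed it with log2 ratios of 2.32 and 2.03, but at 1.51 and 1.89 without the smallest of the 4 clusters of mesenchymal cells described further on.

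Enzymes that fold, modify and link collagen went with it in part. Of 22 tested genes of this kind 6 were higher and 1 was lower. LOX, which oxidises lysines so that collagen and elastin can be linked, was at 97.6 CPM in mesenchymal cells against 5.27 in the other cells, and its relative LOXL2 at 150.1 against 18.7. PCOLCE, which helps to cut the C-terminal propeptide from procollagen, was at 155 CPM in mesenchymal cells against 22.7 in the other cells. The lysyl hydroxylase PLOD2 was at 94.4 CPM in mesenchymal cells against 21.9 in the other cells, just past 4-fold (a log2 ratio of 2.11, and of 1.92 with S of at least 10). SERPINH1, the collagen chaperone, missed it at 319 CPM in mesenchymal cells against 91.7 in the other cells. PPIB and CRTAP, which belong to the prolyl 3-hydroxylase complex, differed little, with PPIB at 991 CPM in mesenchymal cells against 726 in the other cells and CRTAP at 177 against 195.

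Elastic fibre, matricellular and proteoglycan lists each held higher genes, and the second and the third each held a lower gene as well. Of 15 tested elastic fibre and adhesive genes 6 were higher and none was lower. FN1, fibronectin, was at 1865 CPM in mesenchymal cells against 218 in pigment and 285 in crest cells, and the fibrillins FBN1 and FBN2 at 64.9 against 11.2 in the other cells and 98.3 against 14.5. Among 15 matricellular genes 6 were higher: TNC, the glycoprotein tenascin-C, was at 118 CPM in mesenchymal cells against 7.66 in the other cells, and POSTN, periostin, at 31.0 against 0.853. SPARC, a collagen-binding glycoprotein, was at 1197 CPM in mesenchymal cells against 392 in the other cells, a ratio of 3.05. CCN3 was lower, at 2.42 CPM in mesenchymal cells against 67.2 in pigment cells and 3.63 in crest cells. Of 10 proteoglycan genes 4 were higher: the small leucine-rich proteoglycans LUM, DCN and BGN, and VCAN, versican, a large hyaluronan-binding proteoglycan. LUM was among the S genes that chose the cells. DCN, decorin, was at 25.7 CPM in mesenchymal cells against 0.372 in the other cells, and BGN, biglycan, at 266 against 17.8 in pigment and 14.0 in crest cells. VCAN was at 368 CPM in mesenchymal cells against 66.0 in the other cells. The brain proteoglycan BCAN was at 0.968 CPM in mesenchymal cells against 60.0 in the other cells, with 77.2 in pigment and 1.38 in crest cells.

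Basement membrane and protease lists had lower median log2 ratios than the matrix lists above, and over all tested genes 2.19% were at least 4-fold higher. Of 12 tested laminin, nidogen and related genes 3 were higher, with a median log2 ratio of 0.42. NID2 was at 15.7 CPM in mesenchymal cells against 1.90 in the other cells, and LAMA4, a laminin chain of vessels and mesenchyme, at 28.1 against 3.98. LAMA4 and LAMC3 were past 4-fold with log2 ratios of 2.82 and 2.21, and at 1.88 and 0.27 without the smallest mesenchymal cluster. Of 26 proteases and inhibitors 3 were higher, led by FAP, a membrane serine protease of activated fibroblasts, at 92.2 CPM in mesenchymal cells against 5.18 in pigment and 1.38 in crest cells. MMP2, a gelatinase, was at 131 CPM in mesenchymal cells against 116 in the other cells, and the inhibitor TIMP3 at 265 against 107. SERPINE2, an inhibitor of thrombin and plasminogen activators, was at 224 CPM in mesenchymal cells against 761 in pigment and 109.7 in crest cells.

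**Figure D2:**
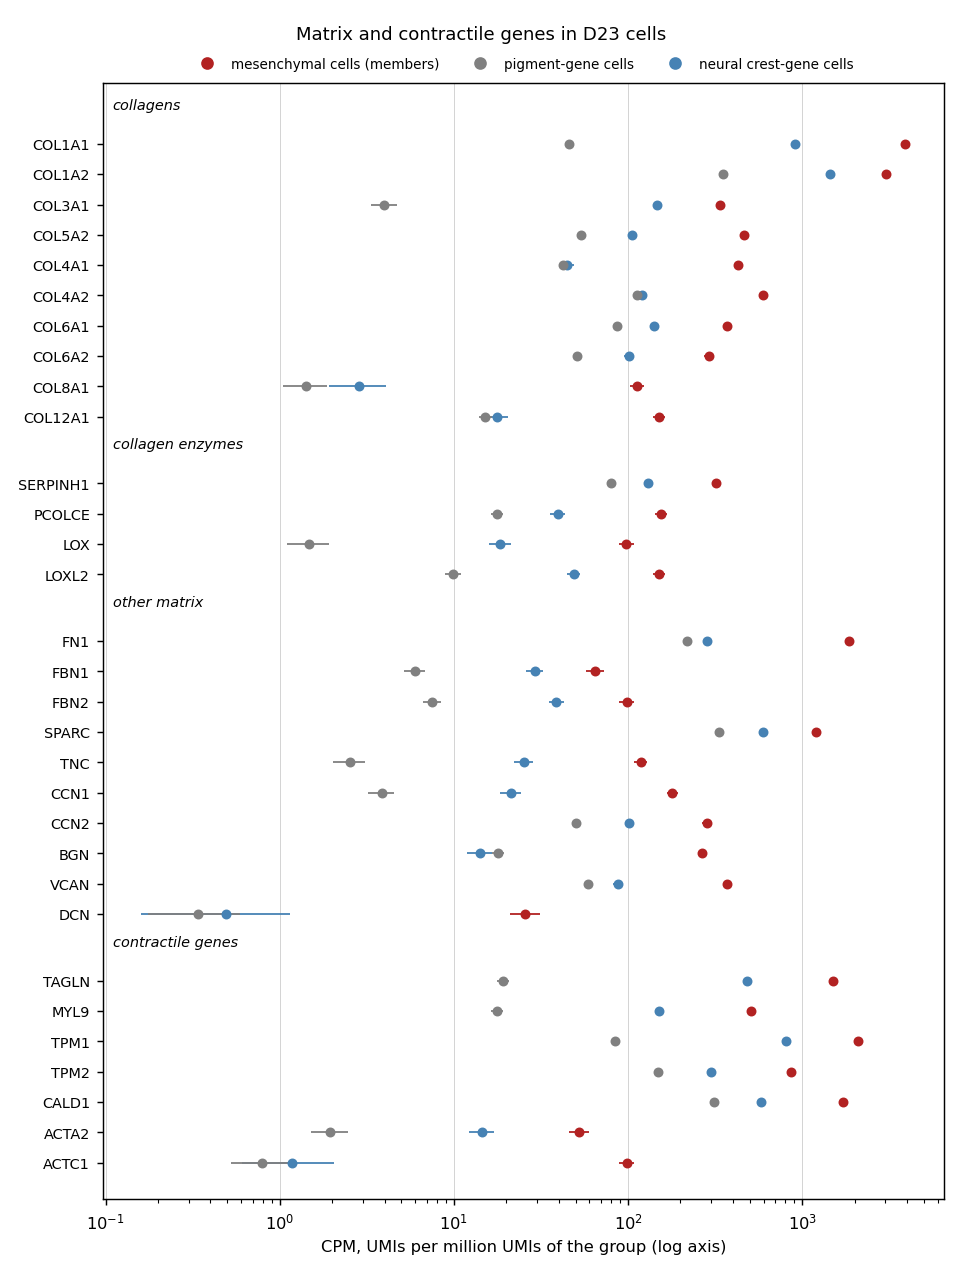
CPM on a logarithmic axis, with 95% Poisson intervals of the summed counts, for collagens, collagen enzymes, other matrix genes and contractile genes in mesenchymal, pigment and crest cells of D23. COL1A1 lies at 3898 CPM in mesenchymal, 45.9 in pigment and 915 in crest cells, whereas COL8A1 (113, 1.41 and 2.85) is low in both other classes. LOXL2 (150.1, 9.85 and 48.7) is less than 4-fold above the crest cells.

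Actin, tropomyosin and other contractile genes were the next large group. Their 29 listed genes summed to 12608 CPM in mesenchymal cells, against 3097 in pigment and 5444 in crest cells, and of 25 tested 9 were higher than in the other cells and none was lower, with a median log2 ratio of 1.33. TAGLN, an actin-binding protein of smooth muscle and fibroblasts, was at 1503 CPM in mesenchymal cells against 19.2 in pigment and 482 in crest cells, and was seen after thinning in 89.1% of mesenchymal, 4.13% of pigment and 67.7% of crest cells. The myosin light chain MYL9 was at 508 CPM in mesenchymal cells against 48.3 in all other cells, and the tropomyosins TPM1 and TPM2 at 2082 against 252 and 862 against 184. ACTA2, the smooth muscle alpha-actin, was at 52.5 CPM in mesenchymal cells against 4.97 in the other cells. The cardiac actin ACTC1 stood furthest apart of the list, at 98.3 CPM in mesenchymal cells against 1.38 in the other cells, and a UMI of it was found in 21.3% of mesenchymal, 0.555% of pigment and 1.21% of crest cells. Against crest cells alone only 2 of the 25 were 4-fold higher, and TAGLN (3.12-fold) and TPM1 (2.56-fold) were not among them. The cytoskeletal genes MYH10 and ACTN4 differed less, with MYH10 at 120.3 CPM in mesenchymal cells against 125 in the other cells and ACTN4 at 266 against 142.

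Of 15 tested genes known as targets of YAP and TEAD, the cofactor and DNA-binding factors that answer to stretch and cell shape, 6 were higher and none was lower, with a median log2 ratio of 1.47. ANKRD1, a nuclear and sarcomeric ankyrin repeat protein, was at 216 CPM (202 to 231) in mesenchymal cells against 0.990 in pigment and 1.96 in crest cells. CCN1 and CCN2, secreted matricellular proteins, were at 179 CPM in mesenchymal cells against 8.18 in the other cells and 284 against 62.0. CRIM1, a transmembrane BMP-binding protein, was at 148 CPM in mesenchymal cells against 22.2 in the other cells. ANKRD1 was uneven: its UMIs were found in 33.4% of mesenchymal cells (24.6% after thinning), against 0.444% of pigment cells (0.425%). TEAD1 itself was at 148 CPM in mesenchymal cells against 111 in the other cells, and LATS2, a kinase that holds YAP back, at 52.5 against 45.8. The ANKRD1 log2 ratio of 6.61 was 5.07 with the rule applied again to thinned counts and 4.89 with S of at least 10. In the latter setting the 68 mesenchymal cells with S under 10 were counted among the other cells.

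CCN2 and ANKRD1 stand for the targets of YAP and TEAD and ACTC1 and ACTG2 for the contractile genes, and their proximal promoters are shown, each from RefSeq on GRCh38.p14 and read 5′ to 3′ toward the transcription start, which follows the last base. The window is the 250 bases before the start: chr6:131951373-131951622 for CCN2, chr10:90921088-90921337 for ANKRD1 and chr15:34795550-34795799 for ACTC1, all on the minus strand, and chr2:73892758-73893007 on the plus strand for ACTG2. Capitals mark GGAATG, the core that TEAD factors bind, in CCN2 and ANKRD1, and the CArG box, which serum response factor binds, in ACTC1 and ACTG2. Both motifs were searched on both strands.
CCN2: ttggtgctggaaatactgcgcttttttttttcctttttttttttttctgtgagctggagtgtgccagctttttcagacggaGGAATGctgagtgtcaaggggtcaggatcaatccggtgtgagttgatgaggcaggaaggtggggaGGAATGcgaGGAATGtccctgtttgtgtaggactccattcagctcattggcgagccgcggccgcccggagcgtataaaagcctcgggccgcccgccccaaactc
ANKRD1: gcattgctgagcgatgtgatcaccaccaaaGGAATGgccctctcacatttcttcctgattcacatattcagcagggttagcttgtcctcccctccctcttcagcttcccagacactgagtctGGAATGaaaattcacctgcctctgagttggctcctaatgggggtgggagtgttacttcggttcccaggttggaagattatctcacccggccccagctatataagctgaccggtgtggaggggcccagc
ACTC1: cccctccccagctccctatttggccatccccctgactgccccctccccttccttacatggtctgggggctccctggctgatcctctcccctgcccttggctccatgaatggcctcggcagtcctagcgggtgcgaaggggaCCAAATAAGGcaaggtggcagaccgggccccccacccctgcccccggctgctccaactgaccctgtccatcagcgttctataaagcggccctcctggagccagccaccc
ACTG2: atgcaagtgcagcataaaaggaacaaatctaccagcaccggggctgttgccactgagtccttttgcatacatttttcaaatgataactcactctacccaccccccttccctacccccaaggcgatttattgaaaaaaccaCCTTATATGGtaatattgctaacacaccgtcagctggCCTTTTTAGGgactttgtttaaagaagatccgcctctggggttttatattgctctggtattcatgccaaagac
GGAATG begins at -169, -104 and -95 from the start in CCN2 and at -220 and -128 in ANKRD1. The CArG box begins at -109 in ACTC1 and at -110 and -73 in ACTG2. Over all 35116 promoter windows of this length, 11.9% held GGAATG and 1.16% held a CArG box. Of the 15 YAP and TEAD targets 10 had a RefSeq window and 3 held GGAATG, the third being PTPN14, and of 29 contractile genes 24 had a window and 7 held a CArG box: ACTA1, ACTC1, ACTG2, CNN2, FLNA, SRF and TPM4. These are matches of letters, and no binding was measured. ACTG2, the gamma smooth muscle actin, was at 30.0 CPM in mesenchymal cells against 0.700 in the other cells.

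Transcription factors set the mesenchymal cells apart through a few genes rather than as a list. Of 36 tested mesenchymal and skeletal factors 6 were higher and 3 lower, with a median log2 ratio of 0.06. Besides TWIST1 and PRRX1, these included the homeobox factor DLX2, at 10.4 CPM in mesenchymal cells against 1.38 in the other cells, the forkhead factor FOXF2 at 11.6 against 2.12, and EN1, a homeobox factor of the midbrain-hindbrain boundary and of ventral limb and dermis. EN1 was at 22.5 CPM in mesenchymal cells against 0.141 in pigment and 0.0982 in crest cells, and its UMIs were found in 12.2% of mesenchymal cells, 0.111% of pigment cells and 0.135% of crest cells. NR2F1, a nuclear receptor of the neural crest, was at 1296 CPM in mesenchymal cells against 336 in pigment and 1509 in crest cells. MSX1, a homeobox factor of cranial mesenchyme, was at 319 CPM in mesenchymal cells against 20.0 in pigment and 621 in crest cells, between the other classes. SNAI2, a repressor that acts when cells leave an epithelium, was nearly level, at 212 CPM in mesenchymal cells against 195 in pigment and 179 in crest cells. Lower factors were TBX2, at 0.968 CPM in mesenchymal cells against 23.2 in the other cells, SOX6, at 11.9 against 67.4, and LHX9, with 0 UMIs against 5.18 CPM in the other cells (at least 7.14-fold lower, with 3 UMIs as the limit for 0).

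HOX genes, which give cells their place along the body axis, lay between the other classes as a sum. Their 39 listed genes summed to 124 CPM in mesenchymal cells, against 59.7 in pigment and 189.7 in crest cells. HOXB2 was at 26.1 CPM in mesenchymal cells against 37.6 in all other cells and HOXA3 at 14.8 against 11.9. The more posterior HOXA5, HOXA9 and HOXC6 were past 4-fold, at 5.33 CPM in mesenchymal cells against 0.656 in the other cells, 8.72 against 0.612 and 5.57 against 1.38, each from few counts (22, 36 and 23 UMIs). As a mean of per-cell CPM the log2 ratio of HOXA5 was 1.95, and that of HOXC6 1.69, under 4-fold.

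Of 17 tested neural crest genes outside the rule none was higher and 1 was lower than in the other cells, with a median log2 ratio of -0.89. Against crest cells 5 of them were higher and 3 lower, with a median log2 ratio of 0.30. Over all tested genes 2.19% were higher and 4.3% lower than in the other cells, and 2.05% were higher and 4.57% lower than in crest cells. The genes named next, from this and other lists, were chosen after their values were seen. TFAP2A (chr6:10393186-10419659), an AP-2 factor of the neural plate border and of melanocytes, was at 86.4 CPM in mesenchymal cells, against 277 in pigment and 5.80 in crest cells. TFAP2B was at 37.3 CPM in mesenchymal cells against 76.7 in pigment and 3.83 in crest cells, and TFAP2C at 23.0 against 50.6 and 1.57. KIT, the receptor for SCF, was at 47.9 CPM in mesenchymal cells against 97.2 in pigment and 5.60 in crest cells. ETS1, a crest factor, was at 142 CPM in mesenchymal cells against 291 in pigment and 31.9 in crest cells, and LEF1, a nuclear partner of beta-catenin, at 50.6 against 29.9 and 6.19. PAX3, which acts above MITF, was at 56.4 CPM in mesenchymal cells against 127 in pigment and 25.4 in crest cells. TFAP2A was seen in 54.1% of mesenchymal, 87.8% of pigment and 5.92% of crest cells, and after thinning in 32.3%, 69.5% and 3.16%. For KIT the thinned shares were 19.5% of mesenchymal, 37.7% of pigment and 2.30% of crest cells. Against crest cells 10 of the 36 mesenchymal and skeletal factors were 4-fold higher, TFAP2A, TFAP2B and TFAP2C among them.

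Most other melanocyte genes were low. Of 19 tested melanocyte genes outside the rule 13 were at least 4-fold lower and none was higher than in the other cells, and together they summed to 457 CPM in mesenchymal cells, against 3328 in pigment and 269 in crest cells. MITF, the central factor of melanocytes, was at 16.7 CPM in mesenchymal cells against 327 in pigment and 6.58 in crest cells. SOX10, a factor of crest, glia and melanocytes, was at 3.87 CPM in mesenchymal cells against 116 in pigment and 2.16 in crest cells, and the enzyme tyrosinase, TYR, had 1 UMI, or 0.242 CPM, against 46.3 and 0.786. EDNRB, the endothelin receptor of melanoblasts, was at 3.39 CPM in mesenchymal cells against 73.4 in pigment and 5.60 in crest cells, and the neuregulin receptor ERBB3 at 5.57 against 99.2 and 2.26. At least 1 UMI of MITF, OCA2, SOX10 or TYR was found in 20.1% of mesenchymal, 91.7% of pigment and 10.8% of crest cells, and in 11.5%, 82.6% and 4.02% of thinned cells. A UMI of TFAP2A or KIT was found in 63.5% of mesenchymal, 91.6% of pigment and 11.3% of crest cells, and in 41.2%, 79.2% and 5.16% of thinned cells.

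With the 233 called doublets of D23 left out the log2 ratio of SOX10 to the other cells was -6.16 in place of -4.55, and that of TFAP2A was -1.37 in place of -1.32. With 10% of each group taken off in the proportions of the barcodes the filter removed, as free RNA, the log2 ratio of TFAP2A was -1.67 and that of KIT -0.94 in place of -0.68, and other shares were not tested.

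**Figure D3:**
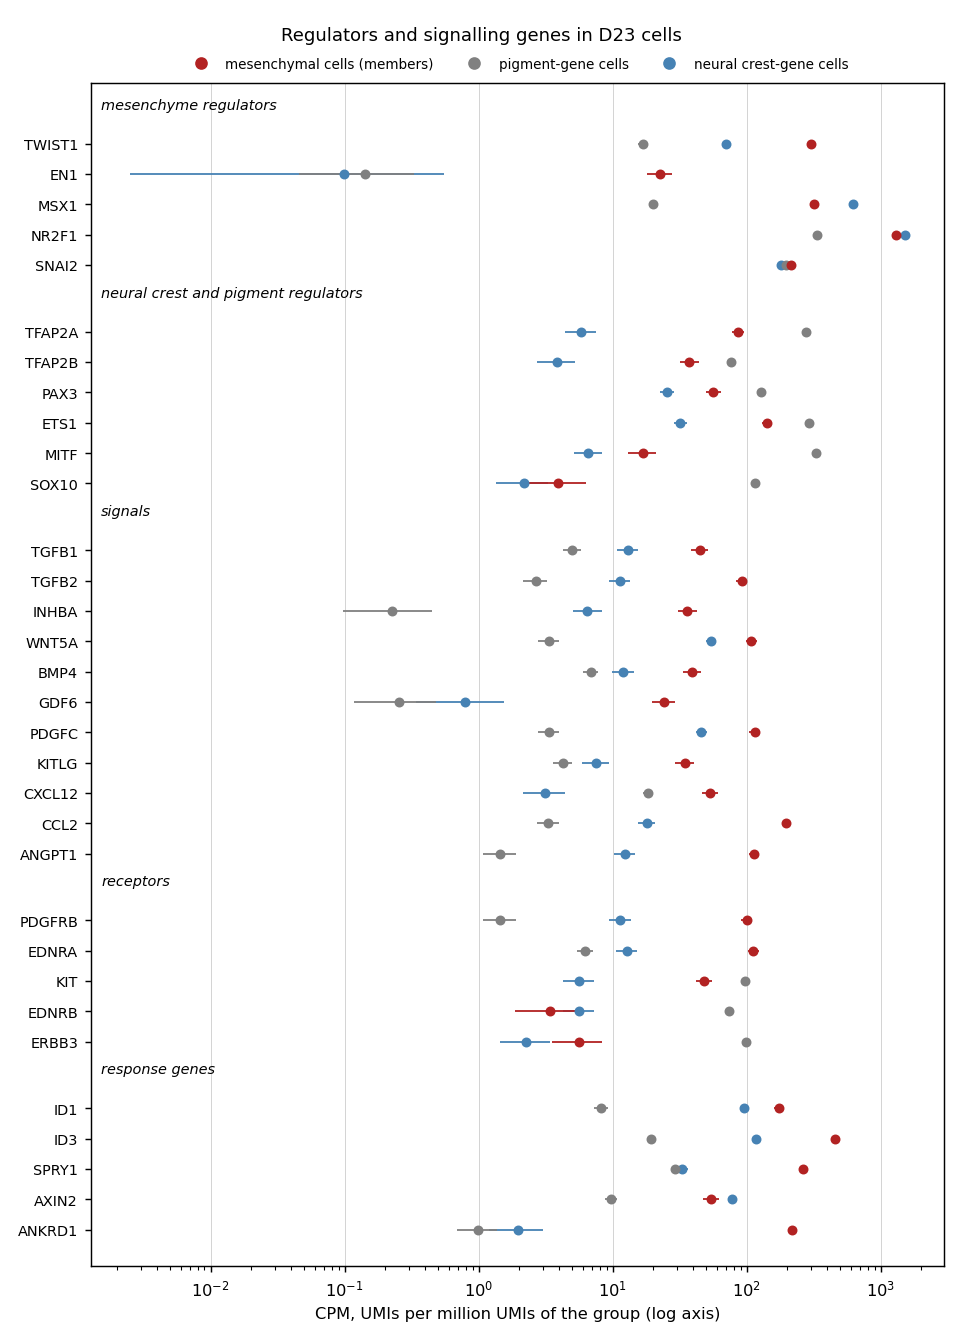
CPM on a logarithmic axis, with 95% Poisson intervals, for transcription factors, ligands, receptors and response genes in mesenchymal, pigment and crest cells of D23. TFAP2A (86.4, 277 and 5.80 CPM) and KIT (47.9, 97.2 and 5.60) lie between the pigment and the crest cells, MITF (16.7, 327 and 6.58) lies near the crest cells, and TGFB2, INHBA and PDGFRB are highest in mesenchymal cells.

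Single ligands of the TGF-beta, BMP and WNT families were higher in the mesenchymal cells and others were lower. For the counts of these lists, the shares over all tested genes were 2.19% higher and 4.3% lower at 4-fold. TGFB2 was at 91.5 CPM in mesenchymal cells against 2.66 in pigment and 11.3 in crest cells, TGFB1 at 44.8 against 4.98 and 13.0, and INHBA, the subunit of activin A, at 36.1 against 0.226 and 6.48. Their receptors TGFBR1 (111 CPM in mesenchymal cells against 69.4 in all other cells) and TGFBR2 (24.5 against 18.8) stayed within 2-fold. Of 26 tested TGF-beta pathway genes 4 were higher and none was lower. Among 23 BMP pathway genes 7 were higher and 3 lower: BMP4 was at 39.2 CPM in mesenchymal cells against 8.01 in the other cells, GDF6 at 24.0 against 0.437, and the antagonist GREM1 at 48.4 against 2.49, while BMP7 was at 3.87 against 16.0 with its highest level of 66.8 in crest cells. ID1 and ID3, inhibitors of helix-loop-helix factors that BMP signals switch on, were at 173 CPM in mesenchymal cells against 28.0 in the other cells and 452 against 42.7, whereas ID2 (128 against 92.2) and ID4 (68.8 against 67.0) were under 4-fold. BMP4 and BMP7 were under 4-fold with the rule applied again to thinned counts, where the log2 ratio of BMP4 was 1.60 in place of 2.29 and that of BMP7 was -1.79 in place of -2.05.

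WNT5A, a ligand of the beta-catenin-independent branch, was at 108 CPM in mesenchymal cells against 3.34 in pigment and 54.0 in crest cells. Of 33 tested WNT pathway genes 6 were higher and 1 was lower than in all other cells. Secreted modulators were prominent, with SFRP2 at 93.9 CPM in mesenchymal cells against 8.42 in the other cells and DKK1, an inhibitor of the LRP co-receptors, at 9.20 against 0.262. RSPO3, which strengthens WNT signals, was at 2.91 CPM in mesenchymal cells against 2.09 in pigment and 79.9 in crest cells. AXIN2, a feedback target of beta-catenin, was at 54.2 CPM in mesenchymal cells against 9.71 in pigment and 77.2 in crest cells, between the classes. Against crest cells the WNT list had 5 genes higher and 7 lower.

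PDGF genes stood out on both sides, ligand and receptor. PDGFRB, the receptor of pericytes and other mesenchymal cells, was at 100.0 CPM in mesenchymal cells against 1.44 in pigment and 11.4 in crest cells, a ratio to all other cells of 25.8 (21.6 to 31.0). PDGFRA was at 13.8 CPM in mesenchymal cells against 1.49 in the other cells, and it was not even among the mesenchymal cells, as shown further on. The ligand genes PDGFA, PDGFB and PDGFC were at 42.9 CPM in mesenchymal cells against 5.80 in the other cells, 20.3 against 4.68 and 114 against 13.0, and PDGFB had a log2 ratio of 1.88 in place of 2.12 without the smallest cluster. SPRY1, a feedback inhibitor of receptor tyrosine kinases, was at 265 CPM in mesenchymal cells against 30.6 in the other cells, while DUSP6 and ETV5, further targets of that pathway, were at 47.7 against 81.1 and 39.0 against 74.0. Of 22 tested PDGF, FGF and HGF genes 7 were higher and 1 lower. IGFBP3 and IGFBP7, binding proteins of insulin-like growth factors, were at 89.8 CPM in mesenchymal cells against 13.1 in the other cells and 841 against 117, the only 2 higher of 12 genes of that list.

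Of 16 tested ligands known to act on melanocytes 7 were higher and 1 was lower than in all other cells. KITLG, the ligand of KIT, was at 34.4 CPM (29.0 to 40.5) in mesenchymal cells against 4.24 in pigment and 7.47 in crest cells. The medium itself held SCF, the protein that KITLG encodes. ASIP, the antagonist of the melanocortin receptor, had 0 UMIs against 4.62 CPM in all other cells (at least 6.35-fold lower, with the same limit of 3 UMIs). On the receptor side EDNRA, the endothelin receptor of ectomesenchyme and smooth muscle, was at 112 CPM in mesenchymal cells against 6.20 in pigment and 12.8 in crest cells, opposite to EDNRB (3.39 against 73.4 and 5.60).

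Secreted attractants included CCL2, a monocyte chemokine, at 198 CPM in mesenchymal cells against 3.31 in pigment and 18.0 in crest cells. CXCL12 was at 53.0 CPM in mesenchymal cells against 18.3 in pigment and 3.14 in crest cells, and ANGPT1, a ligand of the endothelial receptor TIE2, at 114 against 1.44 and 12.4. On the surface CD248, endosialin, was at 57.4 CPM in mesenchymal cells against 7.09 in all other cells and THY1 at 101 against 40.6, a ratio of 2.49. CD44, the hyaluronan receptor, and CD9 were lower, at 39.0 CPM in mesenchymal cells against 228 in the other cells and 18.9 against 106. Of 14 integrin genes the collagen-binding chains ITGA1 and ITGA11 were higher, at 169 CPM in mesenchymal cells against 17.9 in the other cells and 44.1 against 2.67, and so was ITGA8, at 22.0 against 4.33, though with a log2 ratio of 1.95 in place of 2.35 without the smallest mesenchymal cluster. Of 9 tested cadherins CDH11, the mesenchymal cadherin, was the 1 higher, at 101 CPM in mesenchymal cells against 2.09 in pigment and 56.8 in crest cells, and CDH1, CDH3, CDH10 and CDH19 were lower than in all other cells. Against crest cells alone 2 of the 9 were 4-fold lower. CDH3 was low in both classes, at 2.42 CPM in mesenchymal cells against 104 in pigment and 0.884 in crest cells. CDH2 was at 90.8 CPM, between 27.9 in pigment and 348 in crest cells. VIM, the intermediate filament vimentin, was at 5589 CPM in mesenchymal cells against 3434 in the other cells.

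Glial, neural and other pigment genes made up the low end against the other cells. Of 12 tested Schwann and glial genes 8 were lower and none was higher than in the other cells, and 8 were lower than in pigment cells. Against crest cells alone 2 of the 12 were higher and 2 lower, with a median log2 ratio of 0.68. Sums over the list were 244 CPM in mesenchymal cells against 1782 in pigment and 410.4 in crest cells. S100B, a calcium-binding protein of glia and melanocytes, was at 21.3 CPM in mesenchymal cells against 484 in pigment and 62.5 in crest cells. Of 15 neural tube and neuronal genes 7 were lower and none was higher than in the other cells, and 11 were lower than in crest cells. SOX2, a neural and pluripotency factor, was at 3.15 CPM in mesenchymal cells against 29.6 in the other cells, and DCX, a microtubule protein of young neurons, had 2 UMIs, or 0.484 CPM, against 24.5 in the other cells. TUBB3, a tubulin of neurons that many embryonic cells share, was at 239 CPM in mesenchymal cells against 337 in the other cells. HES6, a helix-loop-helix factor, had the lowest ratio, the rule genes left out, among tested genes at 50 CPM or more in the other cells, at 4.12 CPM in mesenchymal cells against 269.9 in the other cells.

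Proliferation genes did not separate the classes. The 38 S-phase genes summed to 1534 CPM in mesenchymal cells against 1597 in the other cells, and the 52 G2/M genes to 4765 against 4220.2, with no gene of either list 4-fold apart. CCND2, a D-type cyclin, was at 460.3 CPM in mesenchymal cells against 84.0 in the other cells, whereas CCND1 was at 181 against 493. CDKN2A was past 4-fold with a log2 ratio of 2.73 (6.54 CPM in mesenchymal cells against 0.984 in the other cells), but at 0.81 without the smallest mesenchymal cluster. The imprinted genes PEG10 and H19 were at 1127 CPM in mesenchymal cells against 264 in the other cells and 13.8 against 0.284, the log2 ratio of PEG10 was 1.79 as a mean of per-cell CPM, and PEG10 was also at 600.0 in crest cells. Of 17 immediate early and stress genes 1 was higher, ASNS, an enzyme of asparagine synthesis that amino acid shortage induces. FOS and JUN, markers of handling stress, were at 16.7 CPM in mesenchymal cells against 30.3 in the other cells and 63.9 against 54.8.

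Apart from genes already given and the rule genes, the largest ratios among genes at 50 CPM or more in the higher group included SLC38A11, a putative amino acid transporter, at 58.1 CPM in mesenchymal cells against 0.700 in the other cells, the sialyltransferase ST6GAL2 at 54.0 against 1.71, and TMEM119, a membrane protein known in mouse from bone-forming cells, at 87.6 against 2.93. COBLL1 was at 59.6 CPM in mesenchymal cells against 3.17 in the other cells. At the other end the melanosome gene RAB38 was at 7.02 CPM in mesenchymal cells against 208 in the other cells, the cation channel TRPM1 at 5.57 against 192, and GPR143, a melanosome receptor, at 7.26 against 239. Crest cells were also low for these genes, at 7.76 CPM for RAB38, 3.83 for TRPM1 and 7.66 for GPR143. The low levels were thus shared with crest cells and differed from pigment cells. DKK1 (35.1-fold) and ACTG2 (42.9-fold) were as far apart but did not reach 50 CPM.

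Genes that varied among the mesenchymal cells beyond counting error included collagen, contractile, ferritin and binding protein genes. In 313 thinned cells, 2866 genes at 50 CPM or more had a median variance of 1.12 times the mean, which is near counting error. The ratio was 47.3 for the nuclear RNA MALAT1, 17.2 for the binding protein IGFBP5, 15.7 for the ferritin chain FTL, 9.64 for COL1A1, 8.35 for ANKRD1, 6.88 for ACTC1, 6.67 for TAGLN and 5.09 for LUM. Clustering of the 329 cells alone gave 4 clusters, of 173, 54, 53 and 49 cells. As these clusters were made from the same genes, their differences are a description. Cell cycle genes led the second and the third: the second (54 cells) led with histone genes and had 3035 CPM of S-phase genes, and the third (53 cells) led with mitotic genes such as PLK1 (106 CPM against 6.06 in the rest of the mesenchymal cells) and AURKA (178 against 10.9) and had 14129 CPM of G2/M genes, against 1389.5 in the first. Median UMIs were 11010, 12861, 15765 and 12990 in the 4 clusters.

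The fourth cluster, 49 cells or 14.9% (11.2 to 19.2%), stood apart from the other 3. It held 41 of the 57 cells with N of 5 or more, and 41 of its 49 cells lay in the mesenchymal cluster of all D23 cells. Small proteoglycans and collagens VI and III were higher in it: DCN was at 75.0 CPM against 14.1 in the first cluster, BGN at 566 against 238, COL3A1 at 954 against 183, LUM at 959.9 against 227, and COL6A3 at 931 against 194. LUM and COL6A3 are S genes of the rule, which takes a cell only where S exceeds N. The median N was 8.74 in this cluster and 0 in the first, so the rule itself partly sets the levels of LUM and COL6A3 here. Its leading genes were ALOX5AP, a leukotriene pathway protein (167 CPM against 4.03 in the rest), GDF15, a stress cytokine (209.7 CPM against 10.1), the serine protease HTRA1 (268 against 16.4) and ISLR, a protein known in mouse from mesenchymal stromal cells (73.5 against 2.30). MSX2 was at 433 CPM in the fourth cluster against 51.3 in the first and NEFM at 130.1 against 6.80, which the rule lets in only where S is higher still. PDGFRA was at 49.0 CPM in the fourth against 1.57 in the first.

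The same 49 cells had no UMI, or lower levels, of several genes that the other mesenchymal cells carried. TFAP2A had 0 UMIs in the fourth cluster, against 112 CPM in the first, where 61.3% of cells held it, and ANKRD1 had 0 against 308 CPM and 42.8% of cells. EN1 and GDF6 had 0 UMIs against 28.3 and 33.0 CPM. KIT was at 1.53 CPM in the fourth cluster against 69.6 in the first, ACTC1 at 1.53 against 103, COL8A1 at 3.06 against 137, ID3 at 45.9 against 559, THBS1 at 58.2 against 403 and TAGLN at 337 against 1821. The imprinted gene PEG10 was at 322 CPM in the fourth against 1238 in the first. Shared by all 4 clusters were TWIST1, at 281, 297, 321 and 343 CPM in the order of the clusters, PRRX1, at 279, 336, 314 and 294, ETS1, at 142, 144, 154 and 122, and COL1A1, at 4355, 3172, 2723 and 4872. Without the fourth cluster the log2 ratio to the other D23 cells was 5.25 for LUM in place of 5.84, 3.38 for COL6A3 in place of 4.06, and -1.07 for TFAP2A in place of -1.32.

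**Figure D4:**
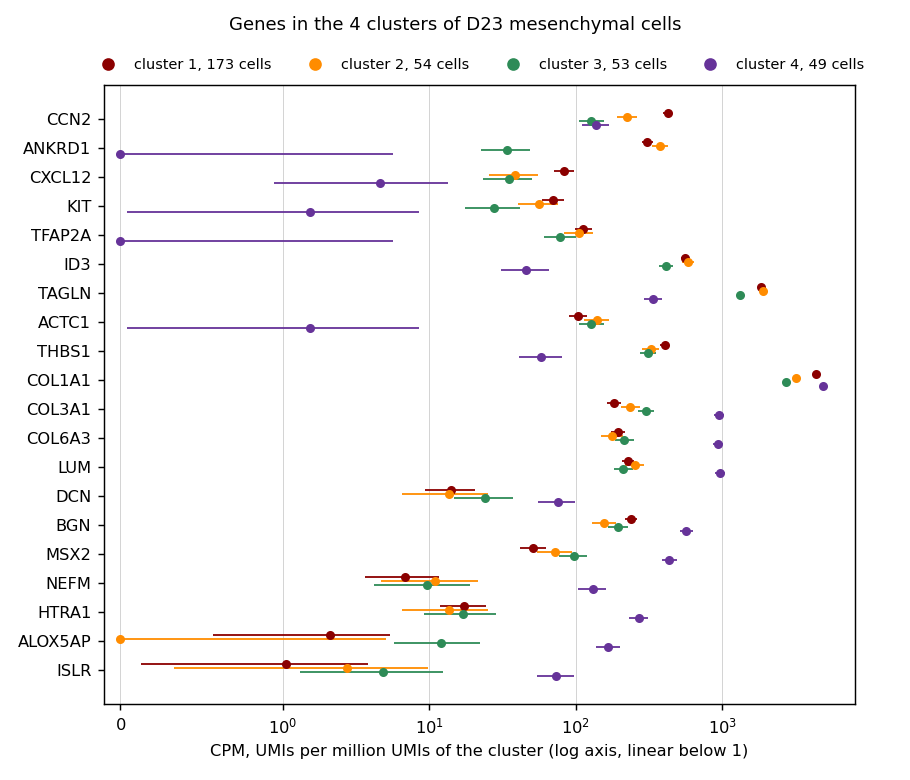
CPM, on an axis that is linear near 0 and logarithmic above, of 20 genes in the 4 clusters of mesenchymal cells (173, 54, 53 and 49 cells), with 95% Poisson intervals. TFAP2A and ANKRD1 are at 0 in the fourth cluster and at 112 and 308 CPM in the first, whereas LUM (959.9 against 227), COL6A3 and DCN are higher in the fourth, and COL1A1 (4872 against 4355) is close in both. LUM and COL6A3 are S genes of the rule.

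The first cluster, 173 cells or 52.6%, had 1010.2 CPM of S-phase genes, below the second and the third cluster and above the fourth (608 CPM). Its leading genes were MUSTN1, a small protein of muscle and skeleton (52.3 CPM against 13.1 in the rest), CXCL12, CCN2, SERPINF1, KIT and ANKRD1. CXCL12 was at 83.2 CPM in this cluster, 38.1 in the second, 34.9 in the third and 4.59 in the fourth. In the same order CCN2 was at 424, 225, 128 and 138 CPM, and KIT at 69.6, 55.8, 27.7 and 1.53. ANKRD1 was at 308 CPM in the first, 376 in the second and 33.7 in the third.

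The same rule applied to the later libraries picked 238 of 6023 filtered cells at D32, or 3.95% (3.47 to 4.47%), and 19 of 5811 at D44, or 0.327% (0.197 to 0.510%). Median depths of the picked cells were 12042 UMIs at D23, 34470.5 at D32 and 35541 at D44. The picked cells were not alike over time. COL1A1 was at 3898 CPM in them at D23, 991 at D32 and 674 at D44, and TAGLN at 1503, 869 and 137. TWIST1 was at 302 CPM at D23, 99.7 at D32 and 184 at D44, NR2F1 at 1296, 33.3 and 117, and ANKRD1 at 216, 15.3 and 1.56. EN1 had 93 UMIs at D23 and none in the picked cells of D32 or D44. COL3A1 was highest at D32, at 338 CPM at D23, 686 at D32 and 208 at D44, and so were BMP4, at 39.2, 436 and 126, and LUM, at 344, 834 and 87.4.

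Keratins of simple epithelia marked the D32 cells. KRT18 was at 58.6 CPM at D23, 2761 at D32 and 549.6 at D44, and KRT8 at 78.2, 1844 and 294. Over 16 epithelial genes the sums in picked cells were 196 CPM at D23, 4997 at D32 and 973 at D44, against 163, 161 and 84.3 in the other filtered cells. DKK1 (9.20, 264 and 93.7 CPM), CXCL14 (17.9, 345 and 4.68) and the surface protein TM4SF1 (13.1, 266 and 82.7) were likewise highest at D32. TGFB2, by contrast, was at 91.5 CPM at D23, 27.7 at D32 and 28.1 at D44, and PEG10 at 1127, 85.6 and 151. D44 rests on 19 cells. The share of the induction, the sequencing run and the depth in these differences was not tested.

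**Figure D5:**
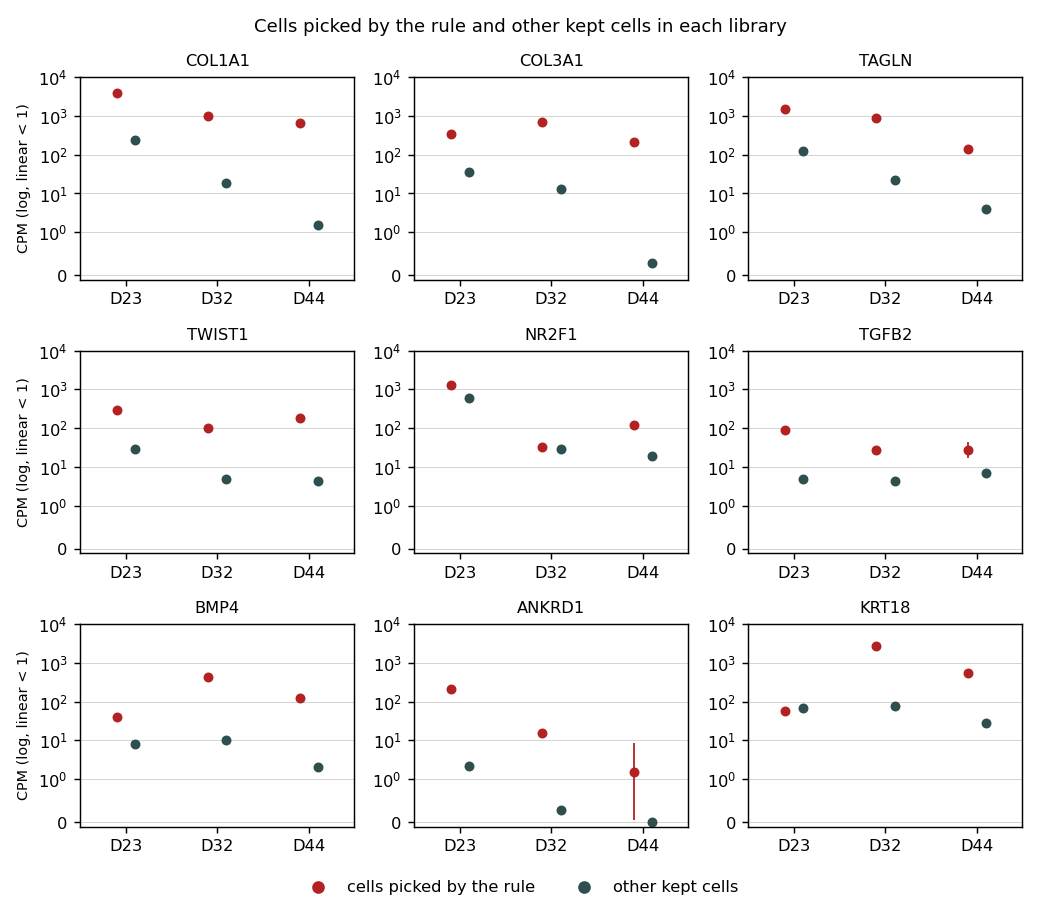
CPM with 95% Poisson intervals for 9 genes in D23, D32 and D44, with the cells picked by the rule on the left and the other filtered cells on the right of each time. COL1A1 (picked cells: 3898, 991 and 674 CPM), TAGLN and NR2F1 are highest at D23, and KRT18 (58.6, 2761 and 549.6) and BMP4 (39.2, 436 and 126) at D32.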

How the data were processed

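RNA was measured in 3 droplet libraries, 1 each at D23, D32 and D44. The authors deposited whole-number counts of UMIs per gene and barcode, not normalized and not yet filtered by cell; the submitters' processing notes name Cell Ranger 6.1.2 and hg38, and the annotation release is not given in the sources used here. Deposited barcodes numbered 5585 at D23 with 53298735 UMIs, and every file column belonged to 1 sample, with 0 columns of other samples.

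Cells were kept as in the study's methods, with over 500 UMIs and under 10% mitochondrial UMIs, and with 1000 to 7000 genes and under 50000 UMIs at D23 or 3000 to 9000 genes and under 100000 UMIs at D32 and D44. This left 49846673 UMIs at D23, 241341185 at D32 and 266709913 at D44. UMIs were summed over the cells of a class and divided by the class total to give CPM. No gene was tested between groups, since each had 1 library. Genes entered at 1 CPM or more over all kept D23 cells. Scrublet in Scanpy marked doublets; its automatic threshold marked only 5 kept cells, so the expected share of 4.468% was used, which marked 250 barcodes and 233 kept cells. Doublets stayed in, except under 1 alternative. D23 cells were clustered (Louvain, igraph 0.11.9, 20 neighbours, 50 components, 3000 variable genes, resolution 0.4, seed 1) without the 15 rule genes, and the chosen cells alone, also without the rule genes, with 15 neighbours, 15 components and 2000 variable genes. Thinning drew 5000 UMIs per cell. Software was Scanpy 1.11.5, pandas 2.3.3, scipy 1.17.1 and numpy 2.4.6 under Python 3.11.15, and edgeR 4.0.16 for TMM factors only. Positions come from GENCODE 44 (13990 of 14031 tested IDs found) and promoters from RefSeq on GRCh38.p14. Motif search used the 250 bases before each start. The scripts were tested on simulated data.

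The text names the 5 markers, the 15 rule genes, members of 52 gene lists (893 symbols, of which WISP2 had no row, as an older symbol of CCN5, which another list held), the 15 highest and 15 lowest ratios among genes with at least 50 CPM in the higher group, and the 10 leading genes of each cluster of the chosen cells; some genes that meet this rule are not reported here. The members, the lists and the rule were chosen with earlier results of these data known. Alternatives changed the rule, the scaling, the minimum CPM and the fold, as given in the closing section.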

Additional observations from a re-analysis of the deposited data

Results flagged for a closer look

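Among 2801 genes at 50 CPM or more in either group of both D23 and D32, 131 were at least 2-fold higher in the cells picked by the rule at both times and 144 at least 2-fold lower at both. For 4 genes the cells picked by the rule lay at least 2-fold below the other cells at D23 and at least 2-fold above them at D32, and 3 of them are given here. Each difference between the times rests on 1 library a time and was not tested. CLU, the chaperone clusterin, was at 36.1 CPM in picked cells against 82.9 in the other cells at D23, and at 126 in picked cells against 6.68 in the other cells at D32, so that the log2 ratio at D23 lay -5.44 from that at D32. STMN2, a microtubule regulator of neurons, was at 20.8 CPM in picked cells against 75.7 in the other cells at D23, and at 271 in picked cells against 46.6 in the other cells at D32, a difference of -4.41. CKB, a creatine kinase, was at 27.1 CPM in picked cells against 78.7 in the other cells at D23, and at 70.8 in picked cells against 33.1 in the other cells at D32, a difference of -2.63. At D44 the 19 picked cells had CLU at 46.8 CPM against 0.395 in the other cells and STMN2 at 175 against 4.94.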

How the results depend on the processing

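Other limits of S, M or S UMIs, doublets left out and thinned counts gave 261 to 336 cells, against 329 as used, and the D23 cluster held 357. Under a stricter limit of S, M or S UMIs, the cells that left the set were counted among the other cells. With an S of at least 10, an S of at least 3, an M under 2, at least 5 UMIs of the S genes, doublets left out, thinned counts, 10% free RNA taken off, the D23 cluster in place of the rule, means of per-cell CPM or TMM factors, 296 to 343 genes were at least 4-fold higher and 462 to 820 at least 4-fold lower in mesenchymal cells than in the other D23 cells, against 307 and 603. TMM factors moved every log2 ratio by 0.1069. The minimum level and the fold moved the counts: with no minimum CPM 2266 genes were higher and 626 lower among 25359 genes, with a minimum of 5 CPM 158 and 322 among 10559, and at 2-fold 836 and 1592, since each setting tests other genes or uses another limit. Of 648 followed genes 185 were at least 4-fold apart. Of these, 184 still were with free RNA taken off, 177 with an S of at least 10, 179 with the cluster, and 165 of 183 in thinned counts, where the rule was applied again and picked 300 cells, 290 of them among the 329. ADAMTS3 turned round in thinned counts, with a log2 ratio of 0.66 in place of -2.39, and the cause was not tested. In thinned counts 7 genes, and without the 2 clusters led by cell cycle genes 2, had no UMI in a group and are given no value. With 3 UMIs as the limit for 0 their ratios took the opposite direction, which such a limit cannot settle. Genes at 0 that kept their direction stayed in. Leaving out the fourth cluster or the 2 clusters led by cell cycle genes was chosen after seeing the data, left 280 and 222 cells and left 173 and 170 of the 185 genes 4-fold apart. No paired analysis was possible because each day has 1 library. Genes under about 10 CPM in mesenchymal cells rest on few UMIs, and depth limits their ratios.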

Other observations

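ASNS, the 1 of 17 tested immediate early and stress genes past 4-fold, was at 6.30 CPM in mesenchymal cells against 0.547 in the other D23 cells. DDIT3, a stress-induced transcription factor, came next by ratio and did not pass, at 70.2 CPM in mesenchymal cells against 24.5 in the other cells. L1TD1, an RNA-binding protein of pluripotent cells, was at 38.7 CPM in mesenchymal cells against 3.81 in the other cells, while POU5F1 and LIN28A had 1 UMI each in the mesenchymal cells and DPPA4 was level, at 69.2 CPM against 67.3. TNFRSF12A, the receptor of the cytokine TWEAK, was at 85.5 CPM in mesenchymal cells against 5.29 in pigment and 76.6 in crest cells.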
